A study of Homo sapiens with 6 samples.

Results

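AP-1 is a family of transcription factors that bind DNA as dimers, and its mRNAs were followed here in the human triple-negative breast cancer (TNBC) cell line MDA-MB-231 after treatment with BRL-50481, an inhibitor of the cAMP phosphodiesterase PDE7A. The 10 genes described were taken by name from the 15651 genes of the deposited table: the 4 FOS genes FOS, FOSB, FOSL1 and FOSL2, the 3 JUN genes JUN, JUNB and JUND, the stress-responsive factor ATF3, and the small MAF genes MAFF and MAFK. All 10 were present. RNA sequencing covered 3 libraries from cells given DMSO, the solvent control, and 3 from cells given BRL-50481. The sample labels disagree about the treatment, with 50 μM for 72 h in their protocol text and 5 μM for 48 h in the treatment field. The study itself gives the dose and time of the protocol text for these samples. The control label gives DMSO alone, with no dose or time. MDA-MB-231 is a long-established line without oestrogen receptor, and all 6 libraries are separate samples of that single line.

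AP-1 dimers recognize a short palindromic DNA element and its close variants. FOS proteins cannot pair with each other and need a JUN partner, JUN proteins pair with themselves as well as with FOS proteins, ATF3 pairs with itself and with JUN proteins, and the small MAF proteins, which lack an activation domain, pair with FOS proteins and with the CNC factors such as NRF2. FOS, FOSB, JUN, JUNB and ATF3 are classic immediate-early genes, switched on within minutes of growth factor, cAMP or stress signals and then shut off, whereas FOSL1 (the protein FRA1) is known for sustained expression in invasive breast cancer cells. Cyclic AMP acts on such genes through protein kinase A and CREB, which binds the cAMP response element.

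Because members that move together can share promoter elements, the RefSeq promoter windows of GRCh38.p14, 250 bases before to 50 bases after each start site, were searched on both strands. Entries were found for 8 of the 10 members, in 10 windows, and FOSL1 and MAFK had none. The core TGACG, which also lies inside the full cAMP response element, was present in 7 of the 10 windows, for 7 members, against 24.6% of the 35116 promoter windows of all genes. The percentages over all windows given here were not matched for GC content. Every window with the core had a higher GC content than either ATF3 window, which lacked it, but a GC-rich MAFF window lacked it too. Whether base composition accounts for the excess was not tested. The full element TGACGTCA was found for JUND and MAFF (1.85% of all windows), the classic AP-1 site TGACTCA for FOSL2 only, just after its start site (4.95%), and the CArG box, the site of serum response factor, in none of these windows (1.29%). Sites more than 250 bases before a start site lay outside the search, so a CArG box there would have been missed. The string TATAAA was found for FOS, FOSB, JUNB and, far upstream, ATF3 (7.33% of all windows). Stretches from 4 promoters are shown because they hold these elements, with TGACG, TGACGTCA and TATAAA in capitals; the first 3 belong to genes that fell and the last to a gene that rose (chr14:75278748-75278825 on the plus strand, chr19:45467916-45467994 on the plus strand, chr19:12791336-12791485 on the plus strand and chr19:18281682-18281842 on the minus strand).
FOS: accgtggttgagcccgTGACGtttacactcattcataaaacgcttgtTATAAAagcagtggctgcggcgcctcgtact
FOSB: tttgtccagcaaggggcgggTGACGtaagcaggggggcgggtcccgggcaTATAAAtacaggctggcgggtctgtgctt
JUNB: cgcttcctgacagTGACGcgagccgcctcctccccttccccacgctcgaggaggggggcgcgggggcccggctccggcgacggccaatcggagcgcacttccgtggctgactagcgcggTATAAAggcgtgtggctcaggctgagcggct
JUND: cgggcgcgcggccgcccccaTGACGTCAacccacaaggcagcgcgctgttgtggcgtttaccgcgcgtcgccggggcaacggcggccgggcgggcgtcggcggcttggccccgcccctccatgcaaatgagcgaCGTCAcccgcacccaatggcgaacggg
In FOS the TGACG core began 64 bases and TATAAA 33 bases before the start site, and in FOSB the same elements began 60 and 30 bases before it. JUNB had TATAAA at a like distance, 31 bases before the start, but its core lay 137 bases before it. JUND had the full element 200 bases before its start, the reverse complement of the core 86 bases before it, and no TATAAA. Of the members not shown, MAFF fell and had the full element, and FOSL2 rose and had the core. JUN fell and had the core without TATAAA. The core and the full element were thus found in members of both directions. TATAAA was found only in members that fell, but JUN and MAFF fell without it. The AP-1 site was found only in FOSL2, which rose. A link of any element with direction was not tested. These are matches of letters only.

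The depth was similar in all libraries, with 30750573 to 33446984 reads on genes. Each deposited value is a read count divided by the library's size factor, called a normalized count here, and 1 read is worth 0.9693 to 1.0215 of it. The lowest value behind any member was 60 reads. Of the table's genes, 15246 (97.4%) reached 4 normalized counts in 3 or more libraries, and all 10 members passed. Over these genes the log2 values were compared with limma, and a gene was called at a Benjamini-Hochberg adjusted p under 0.05. The labels number the replicates and the study calls them biological, without saying how the cultures were separated, so p-values measure the spread between these samples. Replicates spread more in DMSO than in BRL-50481, with residual SDs of 0.0964 to 0.1415 and 0.0791 to 0.0832 on the log2 scale, and DMSO replicate 1 stood farthest out. Of the 4 markers taken to be kept by the line, VIM, CD44, CAV1 and AXL, all were abundant, their summed normalized counts ranging over 140179 to 146011 for DMSO and 190172 to 191993 for BRL-50481. PGR was near 0 (means 1.67 and 5.61), ESR1 was not among the genes of the deposited table, and the 6 measured genes of the 7 expected to be low summed to 2603 to 2800 and 2958 to 3080, mostly ERBB2 and EPCAM. Of other cell types, 2 of 5 leukocyte markers were measured, almost wholly CD68 (summed 3357 to 3801 and 4905 to 5160), 2 of 3 endothelial markers (326.2 to 395.9 and 465.3 to 552.0) and 4 of 5 fibroblast markers (601.6 to 656.3 and 731.9 to 841.1). Such sums follow the most abundant genes, and single markers differed. COL1A2 rose from a mean of 19.3 to 106.9 (log2 fold change 2.42), while COL1A1 stayed at 336.8 and 337.8. Of the genes expected to be low, CDH1 rose from 38.2 to 99.8 (1.39) and FOXA1 fell from 43.6 to 21.0 (−1.02). The part of the marker genes in the results was not tested.

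After BRL-50481, 8 of the 10 members had fallen and 2 had risen, all at an adjusted p under 0.05. Of all genes tested, 29.8% were called lower and 28.9% higher, 58.7% in all. The members' median log2 fold change was −0.49, and that of all genes tested was 0.015. FOSB, FOS and ATF3 fell to less than 50% of their DMSO level (log2 fold change under −1), as did 2.98% of all genes, 5 others fell by less, and FOSL2 and JUND rose. ATF3 lay at this limit, with −0.98 after quantile normalization and −0.99 after median centring. No member rose by more than 1 on the log2 scale, as 5.06% of all genes did. In 9 of the 10 members the libraries of the groups did not overlap, as in 64.2% of all genes (32.3% lower and 31.9% higher), and only JUND overlapped. In bulk RNA, fewer cells that express a gene and less of its RNA per cell cannot be told apart.

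**Figure D1:**
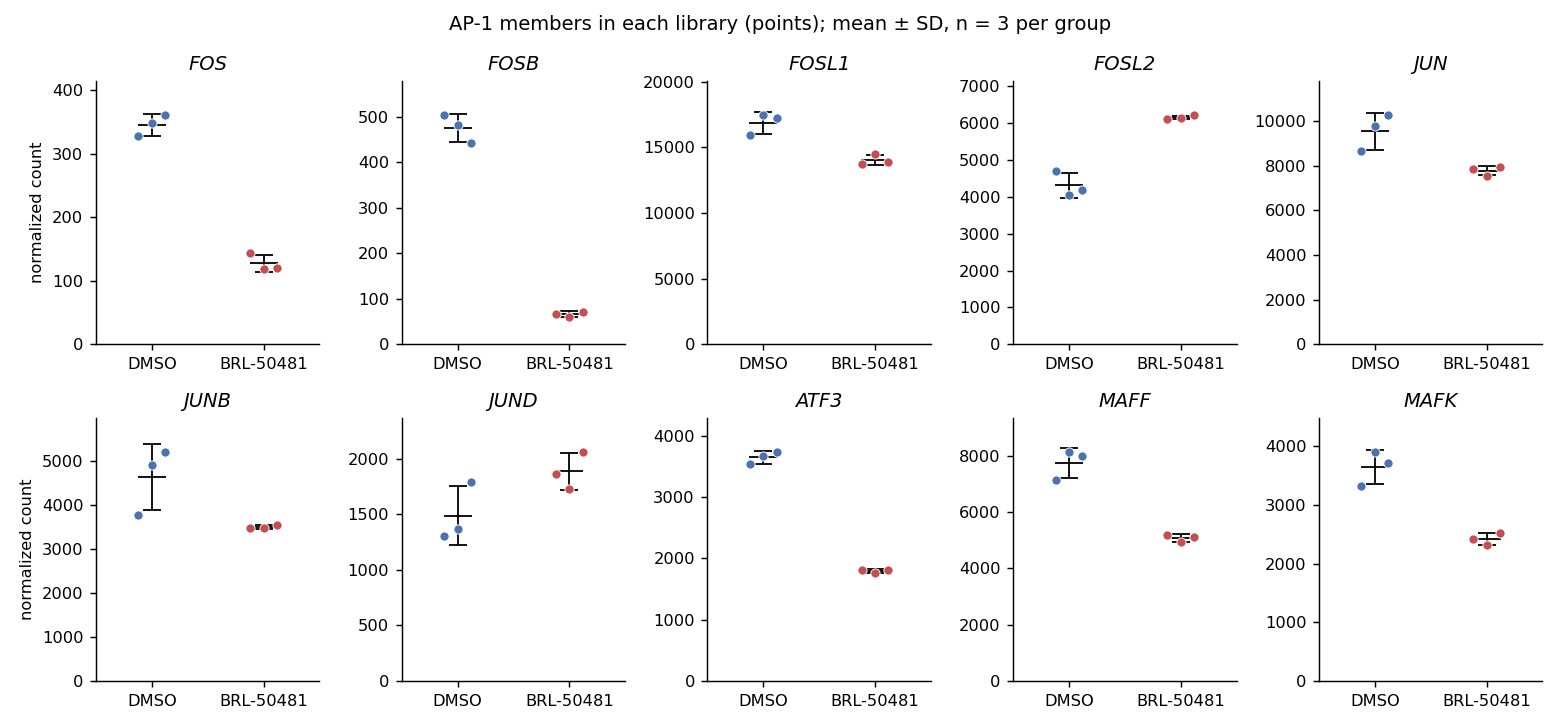
Normalized counts (vertical axes, from 0) of the 10 AP-1 members in each library (points), with the mean and SD of the 3 DMSO and 3 BRL-50481 libraries as bars. FOSB and FOS show the widest gaps between the groups, and in JUND the highest DMSO library (1792) lies above the lowest BRL-50481 library (1730).

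Among the FOS genes, FOSB and FOS encode the partners that appear transiently after stimulation. FOSB (chromosome 19 of hg38, 45467995 to 45475179) had normalized counts of 503.1, 482.9 and 442.3 in the DMSO libraries and 67.4, 60.4 and 71.7 in the BRL-50481 libraries. Every treated library was thus far below every control, and the mean went from 476.1 ± 31.0 to 66.5 ± 5.7 (SD, n = 3 each), 14.0% of the DMSO level. Its log2 fold change was −2.82 (standard error, SE, 0.116, 95% interval −3.07 to −2.57, adjusted p = 1.64e-09), and only 9 of the 15246 genes tested had a lower value.

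FOS (chromosome 14, 75278826 to 75282230), the founding member of the family, had 327.4, 347.8 and 360.6 normalized counts in DMSO and 143.0, 118.9 and 120.2 in BRL-50481. The groups were well apart and each was narrow, at 345.3 ± 16.7 and 127.3 ± 13.5 (SD, n = 3 each). The log2 fold change was −1.44 (SE 0.112, adjusted p = 2.57e-07), with 199 of the tested genes lower than that.

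FOSL1 (chromosome 11, 65892049 to 65900573), which encodes FRA1, moved far less. Its normalized counts were 15935, 17446 and 17224 in DMSO and 13760, 14471 and 13905 in BRL-50481, so that the lowest control still lay above the highest treated library. The mean fell from 16868 ± 816 to 14045 ± 376 (SD, n = 3 each), to 83.3%, with a log2 fold change of −0.26 (SE 0.0483, adjusted p = 0.00041).

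FOSL2 (chromosome 2, 28392448 to 28417317), which encodes FRA2, went the other way. It had 4695, 4039 and 4190 normalized counts in DMSO and 6116, 6141 and 6210 in BRL-50481. The treated libraries were all higher and nearly alike, with means of 4308 ± 343.7 and 6156 ± 48.8 (SD, n = 3 each), a 1.43-fold rise (log2 fold change 0.52, SE 0.0572, adjusted p = 5.55e-06).

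The JUN genes encode the partners that FOS proteins need. JUN (chromosome 1, 58776845 to 58784048) had 8651, 9772 and 10269 normalized counts in DMSO and 7842, 7568 and 7952 in BRL-50481. The groups did not overlap, although DMSO replicate 1 came close to the treated libraries, and the mean fell to 81.4% (log2 fold change −0.29, SE 0.0598, adjusted p = 0.000934).

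JUNB (chromosome 19, 12791486 to 12793315), whose protein often restrains JUN activity, had 3781, 4917 and 5209 normalized counts in DMSO and 3480, 3470 and 3549 in BRL-50481. The DMSO libraries were widely spread (4636 ± 754.5) and the treated ones tight (3500 ± 43.3; SD, n = 3 each). The log2 fold change was −0.39 (SE 0.0913, adjusted p = 0.00239) and ran from −0.53 without DMSO replicate 1, the lowest control, to −0.30 without DMSO replicate 3 and with a correction for transcript length and GC content. The adjusted p reached 0.047 in limma without a trend. Exons of HOOK2 lie on the opposite strand of JUNB, and the counting used strand.

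JUND (chromosome 19, 18279694 to 18281622), the JUN protein with the steadiest expression in resting cells, had 1301, 1370 and 1792 normalized counts in DMSO and 1866, 1730 and 2059 in BRL-50481. DMSO replicate 3 lay above the lowest treated library, so the groups overlapped. The means were 1488 ± 265.6 and 1885 ± 164.9 (SD, n = 3 each), with a log2 fold change of 0.35 (SE 0.103, adjusted p = 0.0102). This call was lost without BRL-50481 replicate 3 (0.29, adjusted p = 0.0557) and in limma without a trend (adjusted p = 0.0855), and over the 17 alternatives the adjusted p ran from 5.96e-05 to 0.0855.

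ATF3 (chromosome 1, 212565334 to 212620777), a stress-induced repressor or activator depending on its partner, had 3535, 3678 and 3738 normalized counts in DMSO and 1810, 1763 and 1810 in BRL-50481. Both groups were tight and far apart, at 3650 ± 104.0 and 1794 ± 27.2 (SD, n = 3 each), a fall to 49.1%. The log2 fold change was −1.02 (SE 0.0509, adjusted p = 6.46e-09).

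The small MAF genes fell together. MAFF (chromosome 22, 38200767 to 38216507) had 7143, 8139 and 7994 normalized counts in DMSO and 5196, 4930 and 5132 in BRL-50481, a log2 fold change of −0.61 (SE 0.0557, adjusted p = 1.1e-06). MAFK (chromosome 7, 1530702 to 1543043) had 3327, 3899 and 3713 in DMSO and 2413, 2311 and 2519 in BRL-50481, a log2 fold change of −0.59 (SE 0.0637, adjusted p = 4.39e-06). Treated libraries were lower than every control for both genes, at 65.5% and 66.2% of the DMSO mean. Exons of PLA2G6 and TMEM184A lie on the opposite strands of MAFF and MAFK. Leaving out DMSO replicate 1, the lowest control of FOS, FOSL1, JUN, JUNB, JUND, ATF3, MAFF and MAFK, left 8 members called lower and 2 called higher.

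**Figure D2:**
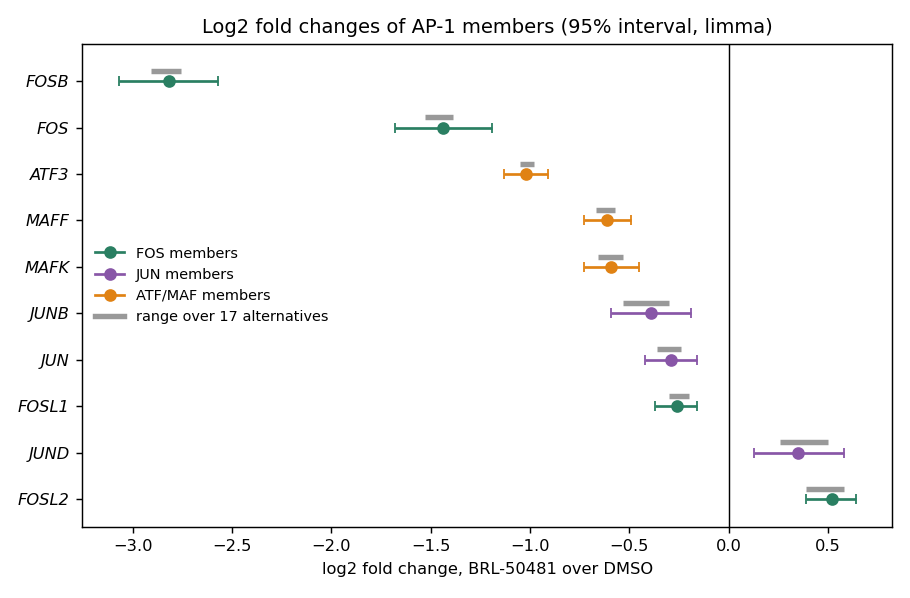
Log2 fold changes of BRL-50481 over DMSO (horizontal axis) for the 10 members, with 95% intervals from limma and, above each, the range of the estimate over 17 alternative analyses in grey. The intervals of FOSB, FOS and ATF3 lie below those of the other members, and FOSL2 and JUND lie above 0.

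Levels were then compared between members as normalized counts per kilobase of the canonical GENCODE transcript. FOSL1 was the most abundant in both groups, at 9911 ± 479.4 per kilobase for DMSO and 8252 ± 220.9 for BRL-50481 (± SD of 3 libraries). In DMSO it was followed by MAFF (3268 ± 226.7), JUN (2936 ± 254.4) and JUNB (2533 ± 412.3), neighbours whose libraries overlapped, then by ATF3 (1882 ± 53.6) and MAFK (1079 ± 86.3). JUND (771.2 ± 137.7) and FOSL2 (641.7 ± 51.2) overlapped, and FOS (164.1 ± 7.94) and FOSB (126.1 ± 8.20) stood lowest without overlap. In BRL-50481 the order was FOSL1, JUN, MAFF, JUNB, JUND, ATF3, FOSL2, MAFK, FOS and FOSB, where JUND overlapped with ATF3 and ATF3 with FOSL2. The members with the largest falls, FOSB and FOS, were thus the least abundant per length in both groups.

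**Figure D3:**
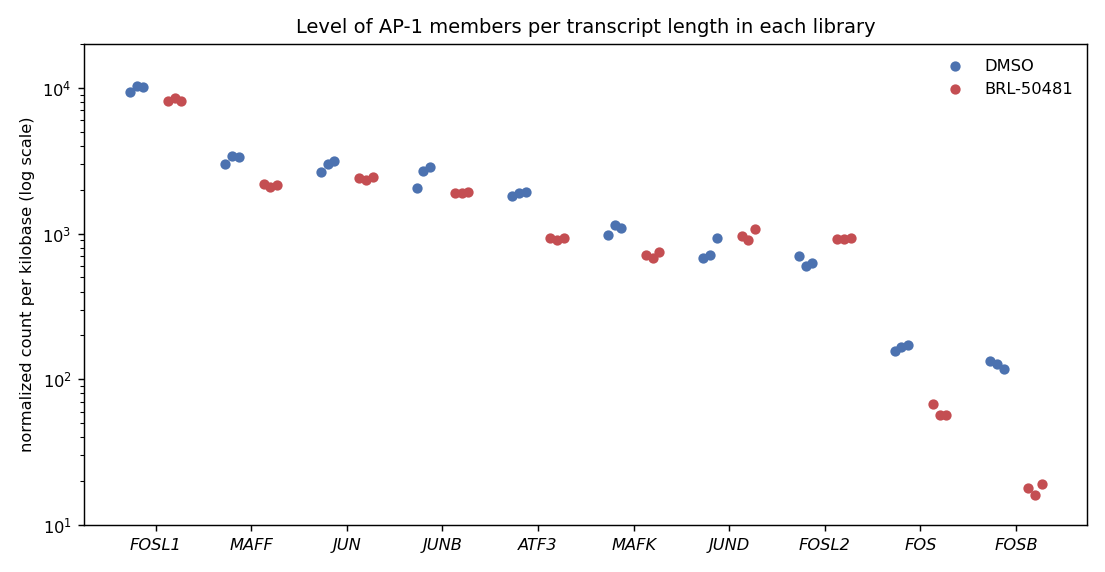
Normalized counts per kilobase of transcript (vertical axis, log scale) of the 10 members in each DMSO and BRL-50481 library (points), ordered by the DMSO mean. FOSL1 is the highest in both groups and FOSB the lowest, at 126.1 in DMSO and 17.6 in BRL-50481.

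The summed level of the FOS genes per kilobase was 10843 ± 429.9 for DMSO and 9247 ± 214.7 for BRL-50481 (± SD of 3 libraries), or 85.3%, and that of the JUN genes was 6241 ± 777.7 and 5281 ± 165.8, or 84.6%. The JUN sums overlapped, since DMSO replicate 1 (5397) lay below BRL-50481 replicate 3 (5448). The ratio of the FOS to the JUN sum was 1.75 in each group (SD 0.163 and 0.0901). The small MAF sum fell further, to 65.7%.

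Within the FOS sum, FOSL1 held 90.5% to 92.0% in the DMSO libraries and 89.0% to 89.6% in the BRL-50481 libraries. The share of FOSL2 was 5.40% to 6.76% and then 9.64% to 10.1%, that of FOS 1.48% to 1.55% and then 0.595% to 0.748%, and that of FOSB 1.06% to 1.29% and then 0.169% to 0.207%. None of these ranges overlapped. Within the JUN sum, JUND rose from 11.1% to 13.4% up to 17.5% to 19.6%, JUNB was at 38.3% to 42.0% and 35.6% to 37.1%, and JUN at 45.5% to 49.2% and 44.8% to 45.6%, where only the shares of JUN overlapped. These shares are a description without a test.

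To compare paralogs directly, 4 ratios were taken within each library, where any scaling of the library cancels. They are ratios of counts, not corrected for length, so they show a change between groups and not which paralog was the more abundant. The ratio of FOSB to FOS counts was 1.54, 1.39 and 1.23 in DMSO and 0.472, 0.508 and 0.597 in BRL-50481. The ratio was lower in every treated library than in any control, a difference of −1.39 on the log2 scale (exact permutation test, two-sided, p = 0.1, which is the lowest that 3 libraries against 3 allow, 0.2 after adjustment over the 4 ratios). The ratio of FOSL1 to FOSL2 was 3.39, 4.32 and 4.11 in DMSO and 2.25, 2.36 and 2.24 in BRL-50481, also without overlap (log2 difference −0.78, exact permutation p = 0.1, adjusted 0.2). The ratio of JUNB to JUN was 0.437, 0.503 and 0.507 and then 0.444, 0.459 and 0.446, overlapping (log2 difference −0.10, exact permutation p = 0.4, adjusted 0.533). The ratio of MAFF to MAFK stayed within 2.04 to 2.15 in all 6 libraries (log2 difference −0.01, exact permutation p = 0.6, adjusted 0.6).

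**Figure D4:**
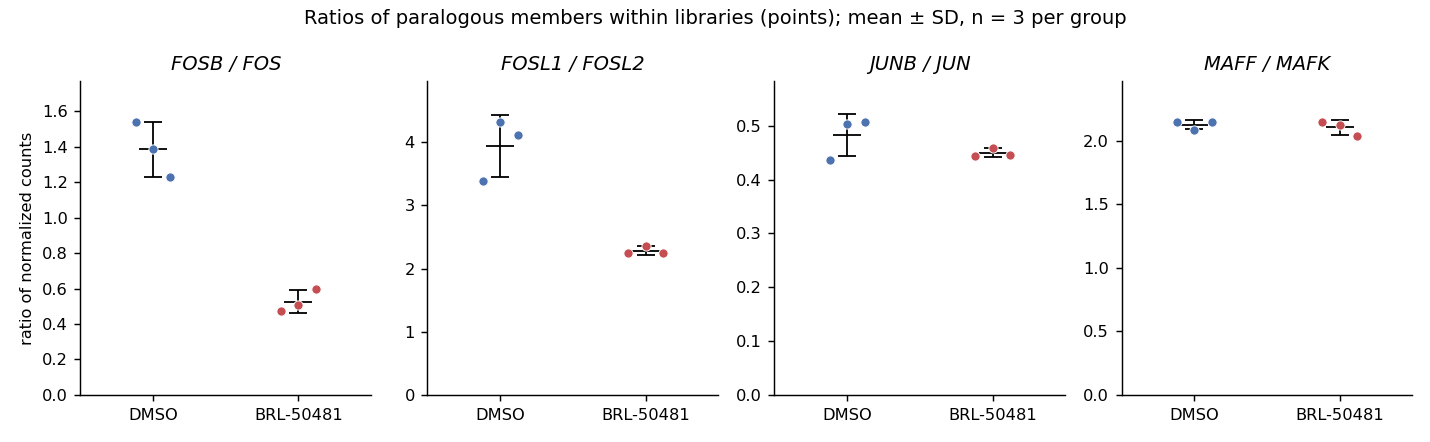
Ratios of normalized counts (vertical axes, from 0) between paralogous members within each library (points), with the mean and SD of 3 libraries per group. FOSB over FOS and FOSL1 over FOSL2 separate the groups, whereas JUNB over JUN and MAFF over MAFK overlap.

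Genes around AP-1 were read from the same fit as 5 lists. For comparison, 28.9% of all genes tested were called higher and 29.8% lower. Of 26 other factors that can pair with AP-1 proteins or bind related sites, all tested, 11 were higher and 8 lower (42.3% and 30.8%), and the median log2 fold change was 0.18. The most abundant were NFE2L1, a CNC partner of small MAFs (log2 fold change 0.43, adjusted p = 4.67e-06), the amino acid stress factor ATF4 (−0.35, adjusted p = 8.41e-05) and NFE2L3 (0.41, adjusted p = 5.67e-06). The largest changes were in MAF, from 14.6 ± 3.74 to 2.98 ± 1.01 normalized counts (−1.97, adjusted p = 0.00233), MAFA, from 17.3 ± 3.14 to 5.33 ± 2.59 (−1.60, adjusted p = 0.00569), and the stress sensor ATF6B, from 1711 ± 38.0 to 3653 ± 148.9 (1.09, adjusted p = 5.35e-09; SD, n = 3 each). MAF and MAFA rest on few reads. The third small MAF gene, MAFG, and the JUN dimerization protein JDP2, both named after their values were seen, had log2 fold changes of −0.82 (adjusted p = 6e-08) and −0.67 (adjusted p = 5.27e-06).

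Among 24 kinases and activators upstream of AP-1, 22 were tested (MAPK10 and MAP2K6 were not), of which 7 were higher and 6 lower (31.8% and 27.3%), and the median log2 fold change was 0.00. Both shares were near those of all genes tested (28.9% higher and 29.8% lower). The most abundant were the ETS factor ELK3 (0.43, adjusted p = 6.19e-06), the p38 kinase MAPK14 (−0.04, adjusted p = 0.525) and the ERK-activated kinase RPS6KA3 (0.00, adjusted p = 0.974). SRF, the serum response factor that drives FOS through the CArG box, fell from 5685 ± 125.0 to 3399 ± 171.7 normalized counts (SD, n = 3 each; log2 fold change −0.74, adjusted p = 1.06e-07). Its coactivator MRTFB, listed as MKL2, rose (0.93, adjusted p = 7.44e-05), as did the kinase BRAF (0.66, adjusted p = 0.000823). The related coactivator MRTFA, listed as MKL1 and named after its values were seen, fell (−0.35, adjusted p = 0.000507).

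Of 14 negative regulators of AP-1, which switch off its kinases, destabilize its mRNAs or degrade its proteins, 7 were higher and 5 lower (50.0% and 35.7%), with a median of 0.03. Among all genes tested the shares were 28.9% higher and 29.8% lower. DUSP1, a phosphatase of JNK and p38 and itself an immediate-early gene, fell from 6461 ± 469.4 to 2687 ± 95.9 normalized counts (−1.26, adjusted p = 3.85e-09), and DUSP2, another MAP kinase phosphatase, from 206.6 ± 27.7 to 47.5 ± 14.5 (SD, n = 3 each; −2.13, adjusted p = 1.39e-06). DET1, part of a ubiquitin ligase for JUN, rose (0.80, adjusted p = 0.000109). Of the most abundant, the ERK phosphatase DUSP6 (0.56, adjusted p = 1.89e-07) and the mRNA decay factor ZFP36L1 (0.31, adjusted p = 2.81e-05) rose and the ERK phosphatase DUSP5 fell (−0.35, adjusted p = 2.13e-05).

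Of 24 other immediate-early genes, all tested, 14 were lower and 1 higher (58.3% and 4.17%), with a median log2 fold change of −0.62. Among all genes tested, 29.8% were lower and 28.9% higher. The largest falls were those of the antiproliferative gene BTG2, from 169.0 ± 22.4 to 55.3 ± 8.07 normalized counts (−1.59, adjusted p = 2.7e-06), EGR3 (−1.24, adjusted p = 9.93e-05) and the orphan receptor NR4A1, from 436.4 ± 22.3 to 186.6 ± 2.95 (SD, n = 3 each; −1.22, adjusted p = 1.89e-07). EGR1, the single gene called higher and named for that after its values were seen, had normalized counts of 3283, 3285 and 3227 in DMSO and 4048, 3999 and 3965 in BRL-50481 (0.29, adjusted p = 0.000124), opposite in direction to FOS. Of the most abundant, CCN1, listed as CYR61, fell (−0.48, adjusted p = 1.29e-06), as did the phosphatase subunit PPP1R15A (−0.72, adjusted p = 3.76e-08), while IER3 had −0.03 (adjusted p = 0.684).

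Of 37 genes known as AP-1 targets, 36 were tested (SPP1 was not), of which 20 were higher and 11 lower (55.6% and 30.6%), and the median log2 fold change was 0.15. The share called lower was near the 29.8% of all genes tested, and the share called higher was above their 28.9%. The most abundant were the collagenase MMP1, at 180558 ± 5332 and 143862 ± 2805 normalized counts (−0.33, adjusted p = 3.41e-05), the chromatin protein HMGA1 (−0.46, adjusted p = 1.19e-05) and PHLDA1 (−0.32, adjusted p = 0.000129), all lower. The largest changes were the fall of the stromelysin MMP3, from 159.2 ± 18.7 to 57.8 ± 17.2 (−1.48, adjusted p = 2.45e-05), and the rises of the EGF receptor ligand HBEGF, from 2526 ± 95.4 to 6407 ± 157.3 (1.34, adjusted p = 8.92e-10), and of the prostaglandin synthase PTGS2, from 1712 ± 151.9 to 3932 ± 53.8 (SD, n = 3 each; 1.20, adjusted p = 1.07e-08). With quantile normalization 22 of the targets were higher and 7 lower.

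**Figure D5:**
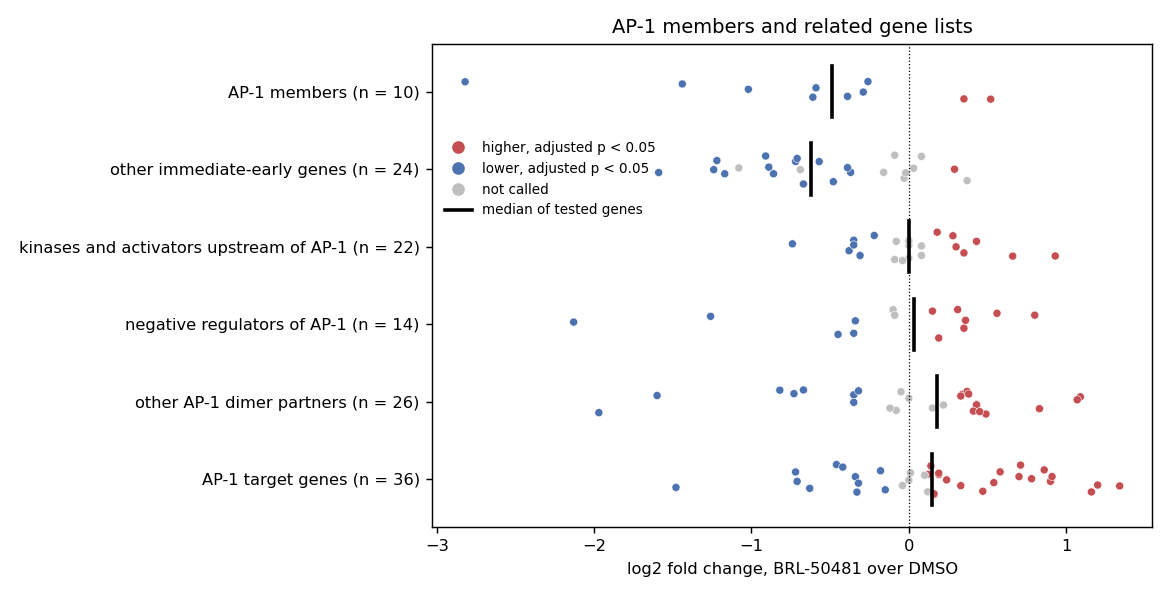
Log2 fold changes of BRL-50481 over DMSO (horizontal axis) of the tested genes of the AP-1 members and of 5 related lists (points, spread vertically at random), coloured by direction where the adjusted p was under 0.05 and grey otherwise, with the median as a bar. The medians run from −0.62 in other immediate-early genes to 0.18 in other dimer partners.

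The genes nearest in pattern to FOSB, by the distance between log2 values centred on their mean over the 6 libraries and among 12251 genes with a mean of at least 50 normalized counts, were the heat shock genes HSPA1B (distance 0.306) and HSPA1A (0.388) and the synaptotagmin SYT7 (0.408). HSPA1A and HSPA1B are near-identical paralogs, and reads that match both equally may be missing from both counts. For FOSL2 the nearest were C2CD5 (0.0346), the casein kinase CSNK1A1 (0.0357) and the deubiquitinase USP8 (0.0560). The distances span both groups, so they largely follow the size of the change between them. HSPA1B, HSPA1A and SYT7 had log2 fold changes of −2.69, −2.68 and −2.87, near the −2.82 of FOSB. A likeness beyond the fold change was not tested.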

How the data were processed

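RNA sequencing of 6 libraries of MDA-MB-231 cells was analysed, 3 per group, grouped by the sample titles. Per the study's methods, STAR placed the single-end reads on hg38, HTSeq counted them by strand over UCSC genes, and DESeq2 normalized the counts (STAR 2.7.1a and DESeq2 1.28 in the submitters' processing notes). The deposited signal of each gene is its read count divided by a size factor for the library. Deposited log2 fold changes, the score of the authors' test and p-values hold their own comparison and were not used. All values (100%) were whole multiples of 1 read within a relative tolerance of 1e-06, so reads were recovered for edgeR 4.0.16 and DESeq2 1.42.0 as alternatives. The main test was limma 3.58.1 (R 4.3.3, eBayes with a trend) on log2(normalized count + 1), with fold changes on that scale, which understates changes of low genes, and with Benjamini-Hochberg adjustment over 15246 genes. On counts simulated for this comparison with 200 changed genes among 15071, limma found 100% of log2 changes of 1 and 91% of 0.5, and called 9 of 14871 unchanged genes. The simulation gave all genes and both groups the same dispersion, a measure of scatter between libraries. This dispersion was set and not estimated from these libraries. Only better-expressed genes were changed, and far fewer of them than the 58.7% of genes called in the data. These rates therefore do not cover low genes, the wider spread of the DMSO libraries or so large a share of changed genes. Single ratios were tested by exact permutation. Lengths and coordinates came from GENCODE release 44 on hg38, where 96.5% of genes matched, and were not those of the UCSC annotation. The intervals and tests cover the spread between these libraries.

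The named genes were the 10 members and, of each list, the 3 with the highest mean and the 3 called genes with the largest change, and for the member with the largest fall and the largest rise the 3 nearest genes in pattern. EGR1, MAFG, JDP2 and MRTFA fall outside this rule, as do the markers COL1A1, COL1A2, CDH1 and FOXA1. All of these were named after their values were seen. Members and lists were chosen with earlier results of these data known, and TATAAA was added to the motifs afterwards. The alternatives were other pseudocounts, filters and normalizations, limma without a trend, both count tests, the replicate block, a length and GC correction (loess, span 0.5) and leaving out each library.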

Additional observations from a re-analysis of the deposited data

How the results depend on the processing

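Across 17 alternatives for each of the 10 members, 168 of 170 values kept their direction and their side of the threshold. The exceptions were both JUND, called neither in limma without a trend nor without BRL-50481 replicate 3, so that 1 member was called higher there. With each library left out in turn, 1 to 2 members were called higher. Quantile normalization left 7 AP-1 targets lower and called 2 other immediate-early genes higher, and the length and GC correction called 11 upstream kinases and activators lower; the cause was not tested. The difference in the log2 ratio of MAFF to MAFK lay between −0.03 and 0.01 with a library left out, reversed to 0.01 without BRL-50481 replicate 3.

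With the replicate number as a block, 2 members were called higher and 8 lower, and no other call of a member changed. Over all genes, 4440 were then higher and 4589 lower, against 4400 and 4546. Deviations of libraries with the same number correlated at 0.121, 0.104 and 0.051. Since these are small, the last near 0, and the labels name no shared batch or day, the numbers were not taken as pairs, although 5 of the 6 libraries correlated best with their own number. Changes of FOSB rest on 60 to 507 reads, and small changes of MAF and MAFA could not be detected at their depth.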
